A study of Mus musculus with 4 samples.

Results

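The annexin genes Anxa1, Anxa2, Anxa3, Anxa4, Anxa5, Anxa6, Anxa7 and Anxa11 were followed in BA/F3 cells, an established mouse cell line that needs interleukin 3 to grow and serves as a model of early B cells. The 8 genes were chosen by name, with earlier results of these data in view, among them the large difference of Anxa3 between libraries grouped by their description field. On the array, 17 of 45101 probe sets carried exactly 1 of these symbols, and they cover 7 of the 8 genes. Anxa11 is named only on 1 probe set that also carries other symbols, so no value is given for it.

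Annexins are proteins that bind phospholipid membranes when calcium rises. They share a conserved core of repeated helical units, and their N-terminal tails differ and carry the binding sites for partners such as S100 proteins. In blood cells they are known for organising membrane traffic, exocytosis and membrane repair, and annexin A5 is the protein used in the laboratory to stain phosphatidylserine on dying cells.

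The study holds 4 libraries, of total RNA by their protocols. By title, source name and genotype, 2 came from cells with an inducible human ETV6-RUNX1 gene (TEL-AML1, the fusion transcription factor of a common childhood B-cell leukemia) and 2 from BA/F3 cells without it. Control and fusion cells alike were kept for 16 h with the inducer mifepristone (32.5 pM), and the series text speaks of the control lines as carrying an empty vector. No source used here gives the promoter that drives the fusion or says whether a line is 1 clone.

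The labels contradict each other for the replicate 1 libraries. Their description field names the library titled fusion replicate 1 as control and the library titled control replicate 1 as fusion-expressing, whereas for replicate 2 it says the same as the title. Both groupings are therefore given, and each library is called by its title. The comparison asks how induction of the fusion changes transcript levels against control cells given the same inducer.

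Values are log2 expression values that the authors made with GCRMA, which corrects background, normalizes and gives 1 value per probe set. The lowest value of every library was 2.23, and 54.7% to 54.9% of probe sets lay within 0.5 of it. A reading there is background, and a difference from it is not a measured fold change. Probe sets with a mean of at least 4 over the 4 libraries were tested, 17720 in all. Of the labelled cell type's markers, Pax5, Ebf1, Vpreb1, Rag1, Rag2 and Cd22 lay near the floor in all 4 libraries, 6 of 12 early B cell genes measured. Igll1, Blnk and Cd79a did not reach the mean of 4 either. The 3 that did were Cd79b at 8.31 to 8.81, Tcf3 at 8.19 to 8.77 and Ptprc at 12.55 to 13.40. The receptor chains for interleukin 3 were measured well above the floor, Il3ra at 6.58 to 7.18 and Csf2rb at 14.08 to 14.78.

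Promoter windows were at hand for 6 of the 8 genes, from RefSeq on GRCm38.p6, each running from 250 bases before to 50 bases after a transcription start. Those of Anxa1, Anxa4 and Anxa5 are printed because these 3 genes read lower in both libraries described as fusion-expressing. They are written 5′ to 3′ on the gene's strand with every CG in capitals, from chr19:20390622-20390921 (minus strand), chr6:86793535-86793834 (minus strand) and chr3:36475838-36476137 (minus strand).
Anxa1: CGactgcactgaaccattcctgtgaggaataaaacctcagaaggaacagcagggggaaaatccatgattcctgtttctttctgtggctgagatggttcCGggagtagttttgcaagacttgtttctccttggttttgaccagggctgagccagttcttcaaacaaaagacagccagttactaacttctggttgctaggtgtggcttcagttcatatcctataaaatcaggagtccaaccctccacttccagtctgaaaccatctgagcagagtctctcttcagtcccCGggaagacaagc
Anxa4: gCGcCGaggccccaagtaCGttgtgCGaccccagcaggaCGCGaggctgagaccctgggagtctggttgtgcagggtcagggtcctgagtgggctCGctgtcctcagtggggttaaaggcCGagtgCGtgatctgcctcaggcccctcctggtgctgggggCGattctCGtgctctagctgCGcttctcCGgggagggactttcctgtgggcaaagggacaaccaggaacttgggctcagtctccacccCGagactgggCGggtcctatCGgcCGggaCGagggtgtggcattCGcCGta
Anxa5: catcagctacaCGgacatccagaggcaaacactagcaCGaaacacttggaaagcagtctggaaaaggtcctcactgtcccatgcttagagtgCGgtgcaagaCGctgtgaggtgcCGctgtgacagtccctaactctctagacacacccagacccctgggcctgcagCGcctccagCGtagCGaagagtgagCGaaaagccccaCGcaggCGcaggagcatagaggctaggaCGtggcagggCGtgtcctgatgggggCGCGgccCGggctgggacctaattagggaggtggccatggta

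The 3 windows differ in base composition. That of Anxa1 holds 3 CG and is 47.3% G and C, that printed for Anxa4 holds 20 and is 65.3%, and that of Anxa5 holds 16 and is 60.3%. A second Anxa4 window, at chr6:86775065-86775364 (minus strand), holds 3 CG and is 43.0% G and C. The median over 32851 windows of all genes is 7 CG. TGTGGT on either strand, a form of the core sequence bound by RUNX factors, is in 0 of the 8 windows of the 6 genes and in 16.8% of all windows. Other forms of that core, such as TGCGGT, were not searched. TATAAA on either strand, a TATA box sequence, is in the Anxa1 window, where it begins 32 bases before the start, in that of Anxa2, where it begins 17 bases before it, and in 13.6% of all windows. These are descriptions of letters, and no binding was measured here.

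Of the 17 annexin probe sets, 11 from 7 genes passed the filter. The other 6 were 1 probe set of Anxa1, 2 of Anxa2 and 3 of Anxa6. Of these, 5 lay within 0.5 of the floor in every library, and the sixth, of Anxa6, read 2.76 in control replicate 1 and 2.40 in the other 3. Anxa3 passed only through the 2 libraries in which it was high. No level is compared between genes, because probe sets differ in how strongly they bind.

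Grouped by title, no annexin difference between fusion and control libraries passed the test. None of the 11 tested probe sets passed (limma adjusted p = 1 for each, Benjamini-Hochberg over all tested probe sets, 2 libraries per group), against 0% of all 17720 tested, of which 50 had an unadjusted p under 0.05. These 50 are fewer than the share of 0.05 that would fall there if no probe set differed. The largest difference, that of Anxa3, was -0.44 (SE 2.69), and the smallest unadjusted p was 0.44, at Anxa5 (limma). No annexin probe set was 2-fold apart without overlap of the groups, against 0.429% of all tested, and 1 was when control replicate 2 was left out. In 1 of the 11 the groups did not overlap at any size, against 10.7% of all tested. With 2 libraries a group a small change would not be seen. Where the standard error was large, as at Anxa3 (2.69) and Anxa1 (0.75), a change of 2-fold or more could also be missed. The series text calls the replicates independent without saying whether they were separate cultures, so the spread behind these p-values may be technical. If the description field is right, each title group holds 1 library of each condition, and this test could not show a fusion effect.

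Grouped by the description field, single annexins stood far apart and others overlapped. Anxa3 read high in both fusion-described libraries and at the floor in the others, Anxa1, Anxa4 and Anxa5 read lower there, Anxa6 read slightly higher, and Anxa2 and Anxa7 overlapped. In 7 of the 11 tested probe sets the groups did not overlap, against 50.4% of all tested, 5 of them lower against 25.1% and 2 higher against 25.3%. The 5 lower ones include all 3 probe sets of Anxa4, which count as 1 gene. At least 2-fold differences without overlap were found at 2 of the 11, Anxa1 and Anxa3, against 9.23% of all tested, and at 4 when control replicate 2 was left out. The median difference over the 11 was -0.13, beside -0.01 over all tested probe sets. Because the genes were chosen with this contrast known, these values are a description and no test of them is given. The groupings also depend on each other, since 4 untied values can be split without overlap in only 1 way into pairs.

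**Figure D1:**
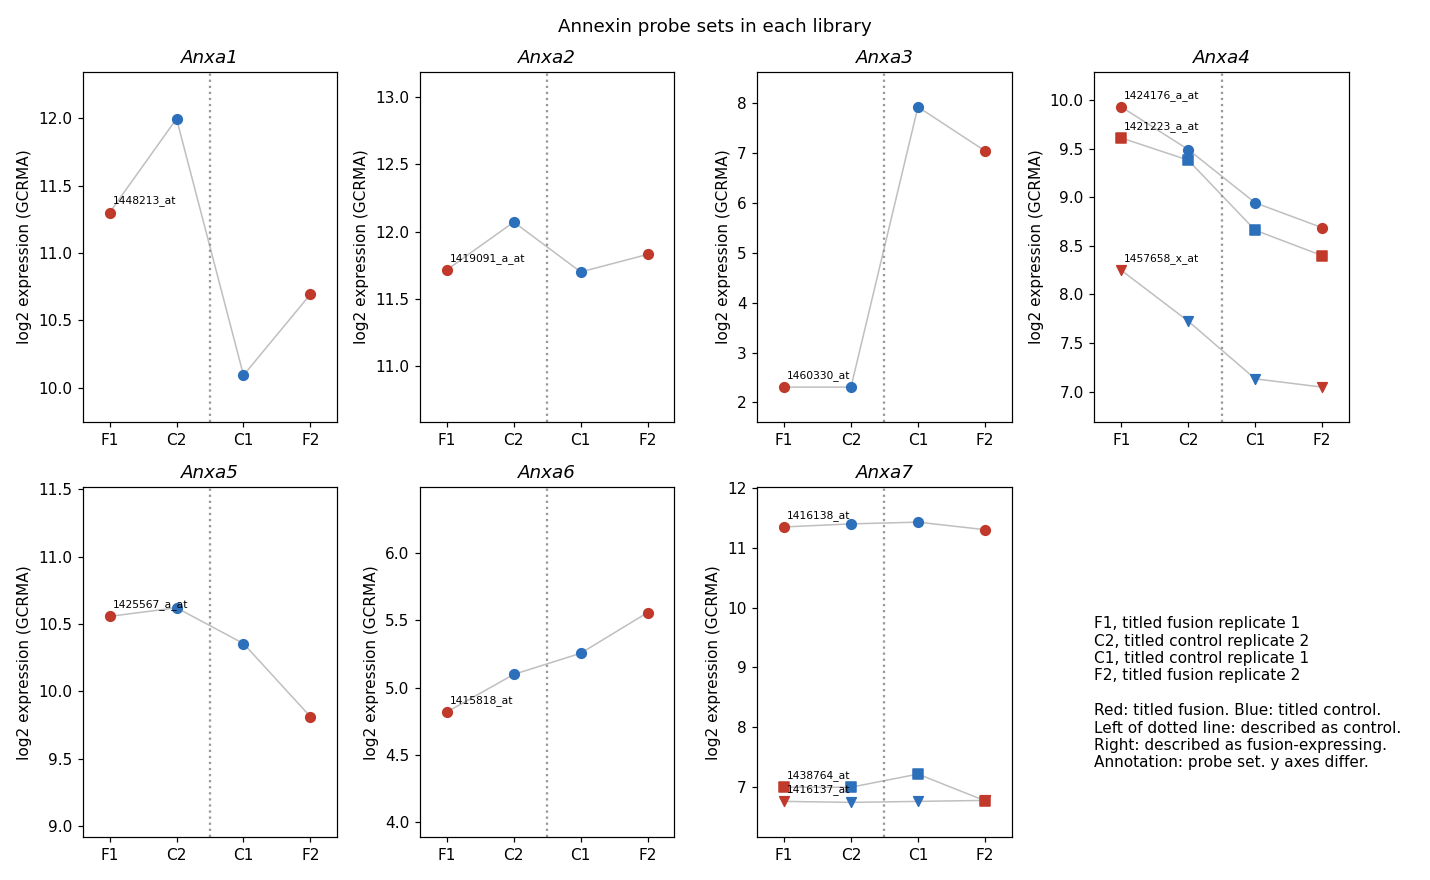
Log2 expression (y axis, a different range in each panel) of the 11 tested annexin probe sets in the 4 libraries (x axis), with 1 point per library, red where the title says fusion and blue where it says control. The 2 libraries left of the dotted line are described as control and the 2 on the right as fusion-expressing. Anxa3 reads 2.31 in both libraries on the left and 7.92 and 7.04 on the right, and the 3 Anxa4 probe sets step down together.

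Anxa3, an annexin abundant in neutrophils and other myeloid cells, was measured by 1 probe set (1460330_at). It read 7.92 in control replicate 1, 7.04 in fusion replicate 2, and 2.31 in both fusion replicate 1 and control replicate 2. The 2 high libraries are those described as fusion-expressing, and the 2 low ones hold the same value to the last digit, close to the floor. The means by description were 7.48 ± 0.62 (SD, n = 2) and 2.31 ± 0.00, a difference of 5.17 (SE 0.36). The floor hides any spread between the low libraries, so this SE may be too small, and the difference is not a measured fold change. Against the filter level of 4 the high libraries lay 3.48 above on average.

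By title the same values gave opposite signs in the replicates. Fusion minus control for Anxa3 was -5.61 in replicate 1 and 4.73 in replicate 2. The title means were 4.67 ± 3.34 (SD, n = 2) in fusion and 5.11 ± 3.97 in control libraries, so the SD within each title group was several times the difference. Over the tested annexins, 8 of 11 probe sets had opposite signs in the replicates, and 72.9% of all tested probe sets did.

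The genes whose profile over the 4 libraries lay closest to that of Anxa3 were Hal, Gtsf1, Ccr2, Lgals3 and Slc9b1. Closeness was the root mean square distance between log2 values centred on each probe set's mean, and these 5 lay at 0.319, 0.399, 0.452, 0.456 and 0.485. Hal, histidine ammonia-lyase, read 7.29 and 7.02 in the fusion-described libraries and 2.28 and 2.56 elsewhere. Lgals3, which encodes the galactoside-binding protein galectin-3, read 7.08 and 7.37 against 2.39 and 2.46. With 4 libraries, and several of these genes at the floor in the same 2, the likeness largely restates which libraries are high.

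Some markers of mast cells, basophils and myeloid cells lay high in the same libraries as Anxa3, and others did not. Of 14 such genes measured, 8 passed the filter, and 7 of these 8 had a higher mean by description, with a median difference of 1.22. In 4 of the 8, Fcer1a, Hdc, Lyz2 and Ms4a2, the groups did not overlap, each higher and at least 2-fold, beside 25.3% of all tested probe sets that were higher without overlap and 9.23% at least 2-fold apart in either direction. Fcer1a, the alpha chain of the high-affinity IgE receptor, read 9.91 and 7.69 in the fusion-described libraries and 2.37 and 2.32 elsewhere. Like Anxa3, it passed the filter only through the 2 libraries in which it was high, and its difference is not a measured fold change. Hdc, histidine decarboxylase, read 8.16 and 7.84 against 3.70 and 5.09. Fcer1g, Gata2 and Cd68 overlapped between the description groups. Mpo, myeloperoxidase, overlapped too and had the lower mean in the fusion-described libraries, by -1.49, with its highest value in control replicate 2 and 2.34 to 4.48 in the other 3. Kit and Elane, a mast cell receptor and a neutrophil protease, lay at the floor in all 4 libraries. Of the other genes under the filter, Mcpt8 and Cpa3 read higher in the fusion-described libraries, Itgam read lower, and Csf1r did not vary. Tested genes of the stromal and the megakaryocyte and erythroid marker lists split by description too, Acta2 by 1.39 and Klf1 by -2.37, whereas Vim and Itga2b overlapped. Summed on the linear scale over the 14 genes, the markers came to 15865 in control replicate 1. In the other 3 libraries they came to 9055 to 9672, so the sums overlapped between the description groups. Gata2, at 12.44 to 13.26, and Fcer1g, at 11.04 to 11.82, made up most of each sum. The sums therefore say little about the dimmer markers, such as Fcer1a and Hdc. The part of these markers in the annexin values was not tested. In bulk RNA, fewer cells of a type and less RNA per cell cannot be told apart.

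Anxa1, an annexin known as a glucocorticoid-induced brake on inflammation and on phospholipase A2, went the other way. Its tested probe set (1448213_at) read 12.00 in control replicate 2, 11.30 in fusion replicate 1, 10.70 in fusion replicate 2 and 10.09 in control replicate 1. Both libraries described as fusion-expressing lay below both others. The means were 10.39 ± 0.43 (SD, n = 2) and 11.65 ± 0.49, a difference of -1.25 (SE 0.35), which is 2.39-fold lower. By title the difference was -0.05 (SE 0.75), since replicate 1 gave 1.21 and replicate 2 gave -1.30. The other Anxa1 probe set read 2.23 in every library.

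Anxa4, an epithelial and secretory-cell annexin that gathers on membranes after calcium entry, was measured by 3 probe sets that ran in parallel. The one with the highest mean (1424176_a_at) read 9.93 in fusion replicate 1, 9.49 in control replicate 2, 8.94 in control replicate 1 and 8.69 in fusion replicate 2. The second (1421223_a_at) read 9.61, 9.38, 8.66 and 8.40 in the same order of libraries, and the third (1457658_x_at) read 8.25, 7.73, 7.13 and 7.05. All 3 rank the libraries alike. By description they differed by -0.89 (SE 0.23), -0.97 (SE 0.19) and -0.90 (SE 0.25), each just under 2-fold, the fold that Anxa1 passes, and each without overlap. The 3 probe sets carry the same symbol and count as 1 gene. By title they differed by 0.09, -0.02 and 0.22, within standard errors of 0.55, 0.56 and 0.55.

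Anxa5, the phosphatidylserine-binding annexin, read 10.62 in control replicate 2, 10.56 in fusion replicate 1, 10.36 in control replicate 1 and 9.81 in fusion replicate 2. The library of fusion replicate 2 stands apart from the other 3. By description the difference was -0.51 (SE 0.23), without overlap. By title it was -0.30 (SE 0.35), from 0.20 in replicate 1 and -0.81 in replicate 2.

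Anxa6, a large annexin formed by a doubled core, had 1 tested probe set of 4 (1415818_at). It read 5.56 in fusion replicate 2, 5.25 in control replicate 1, 5.10 in control replicate 2 and 4.82 in fusion replicate 1, all within 0.74 of each other. By description the difference was 0.45 (SE 0.22), without overlap. By title it was 0.01 (SE 0.35).

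Anxa2, the annexin that pairs with S100a10 at the plasma membrane, read 12.07 in control replicate 2, 11.83 in fusion replicate 2, 11.72 in fusion replicate 1 and 11.70 in control replicate 1. The groups overlapped under both labels, with differences of -0.11 (SE 0.21) by title and -0.13 (SE 0.17) by description. Anxa7, also called synexin and known for promoting membrane fusion, was measured by 3 tested probe sets. Its brightest probe set (1416138_at) read 11.35, 11.43, 11.40 and 11.30 in fusion replicate 1, control replicate 1, control replicate 2 and fusion replicate 2. It differed by -0.09 (SE 0.17) by title, where it was the 1 of the 11 tested annexin probe sets whose title groups did not overlap, and by -0.01 (SE 0.11) by description. The other 2 Anxa7 probe sets stayed within 0.44 and 0.0329 over the 4 libraries and each held a pair of identical readings.

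**Figure D2:**
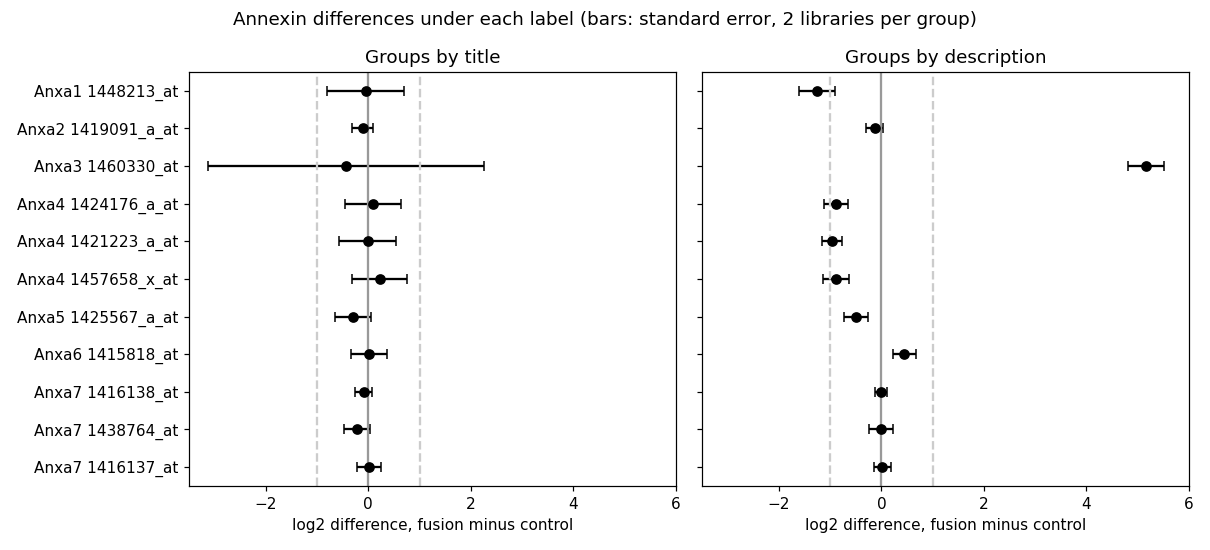
Log2 difference, fusion minus control (x axis), of each tested annexin probe set (y axis), grouped by title on the left and by description on the right. Points are differences of group means with 2 libraries a group, bars are limma standard errors, and dashed lines mark 2-fold; Anxa3 lies at -0.44 by title with a bar of 2.69 to either side, and at 5.17 by description.

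The replicate 2 libraries are the pair on whose condition all labels agree, and there each group is 1 library, so no test was made. Fusion minus control was 4.73 for Anxa3 and -1.30 for Anxa1, the 2 of 11 annexin probe sets at least 2-fold apart, against 11.4% of all tested. Anxa3 lay near the floor in control replicate 2, so its difference is not a measured fold change. It passed the filter only through its high libraries, and the genes were chosen with its difference known, so the count is a description. The Anxa4 probe sets differed by -0.80, -0.98 and -0.68, Anxa5 by -0.81, Anxa6 by 0.46, Anxa2 by -0.24 and the brightest Anxa7 probe set by -0.10. These libraries also enter the description grouping.

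**Figure D3:**
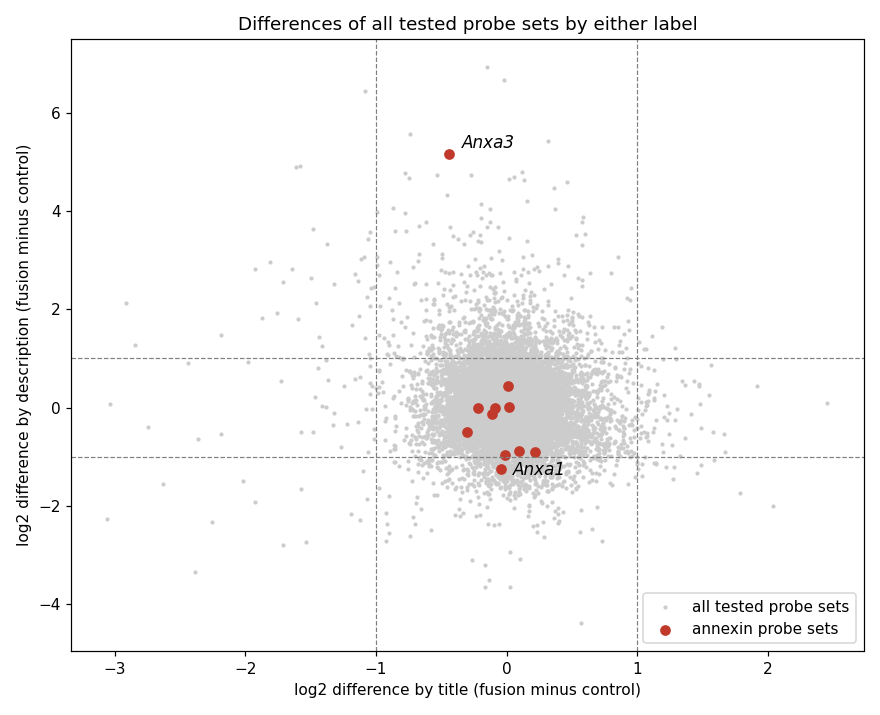
Each grey point is 1 of the 17720 tested probe sets, with its log2 difference by title on the x axis and by description on the y axis; red points are the 11 annexin probe sets and dashed lines mark 2-fold. Along the x axis all red points lie within 0.44 of 0, and along the y axis Anxa3 lies at 5.17 and Anxa1 at -1.25.

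Among annexins outside the set, Anxa9, a family member that has lost the usual calcium sites, read 8.26 in control replicate 1, 7.71 in fusion replicate 2, 6.97 in fusion replicate 1 and 6.77 in control replicate 2. Both libraries described as fusion-expressing lay above the others, by 1.12 (SE 0.27), and the title difference was -0.18 (SE 0.66). Anxa8, Anxa10 and Anxa13 lay at the floor in all 4 libraries.

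Partner genes were read from 8 lists of 49 genes, of which 44 were measured and 29 passed the filter. By title 0 of the 29 passed (limma, adjusted p = 1 for each) and 0 were 2-fold apart without overlap, or 1 with any single library left out. By description 17 of 29 did not overlap, beside 50.4% of all tested probe sets, and 2 were at least 2-fold apart, both higher, beside 9.23%. The latter count was 5 without fusion replicate 2 and 1 without control replicate 2.

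Of the S100 partners, S100a4 separated the libraries by title, and none of the 3 measured did so by description, beside 10.7% and 50.4% of all tested probe sets. S100a10, the light chain of the Anxa2 complex, read 12.97 in fusion replicate 1, 12.93 in control replicate 1, 12.83 in fusion replicate 2 and 12.31 in control replicate 2, and differed by 0.28 (SE 0.26) by title and 0.24 (SE 0.25) by description. S100a6 differed by 0.22 by title and -0.26 by description, and S100a4 by -0.81 (SE 0.47) and 0.09 (SE 0.60). S100a4 read 8.61 and 9.50 in the libraries titled fusion and 9.51 and 10.22 in those titled control, and its title difference did not pass (limma adjusted p = 1). S100a11, a partner of Anxa1, had no single-symbol probe set. Among the calcium-binding and membrane-scission partners of Anxa7 and Anxa11, 6 of 7 were tested. Sri, which encodes sorcin, differed by 0.20 by description, Pdcd6, the penta-EF-hand protein ALG-2, by -0.32, Pdcd6ip, its partner ALIX, by -0.06, and Chmp4b, an ESCRT subunit, by 0.09.

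The receptors and surface proteases known to act with Anxa1 and Anxa2 were mostly at background. Fpr2, Fpr-rs3 and Fpr-rs4, the 3 formyl peptide receptor genes measured, read at the floor in every library. So did Plg, Plat, Plau and Serpinb2 of the plasminogen system. Plgrkt, a plasminogen receptor, read 8.85 in control replicate 1, 8.09 in fusion replicate 2, 7.51 in fusion replicate 1 and 7.36 in control replicate 2, a description difference of 1.04 (SE 0.32). Plaur, the urokinase receptor, differed by -0.23.

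Calpains are calcium-activated proteases that act with annexins in membrane repair. The 3 tested calpain genes read higher by description without overlap, beside 25.3% of all tested probe sets that did so. Capn2 read 12.17 in control replicate 1, 12.11 in fusion replicate 2, 11.23 in fusion replicate 1 and 10.77 in control replicate 2, a difference of 1.14 (SE 0.20). Capns1, the shared small subunit, differed by 0.52 and Capn1 by 0.48. The other 5 repair genes, Dysf, Myof, Trim72, Ahnak and Cav1, lay at or near the floor.

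Genes that set phosphatidylserine, the lipid annexin A5 binds, on either face of the membrane were mixed, with 3 of 7 tested higher and 4 lower by description and a median of -0.08. Plscr1, a phospholipid scramblase, differed by 0.92 (SE 0.10), Tmem30a, a flippase subunit, by -0.23 (SE 0.39), Atp11a, a flippase, by -0.08 and Atp8a1, another flippase, by 0.97 (SE 0.31). Of phospholipase A2 genes, Pla2g4a, the cytosolic enzyme, differed by -0.29, Pla2g12a by -0.88 (SE 0.24), Pla2g6 by -0.08 and Pla2g15 by 0.41. Of 4 tested glucocorticoid response genes, 0 separated by description, beside 50.4% of all tested probe sets. Nr3c1, the glucocorticoid receptor, differed by 0.48, Fkbp5 by -0.59 (SE 0.44), Dusp1 by 0.25 and Per1 by -0.16.

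**Figure D4:**
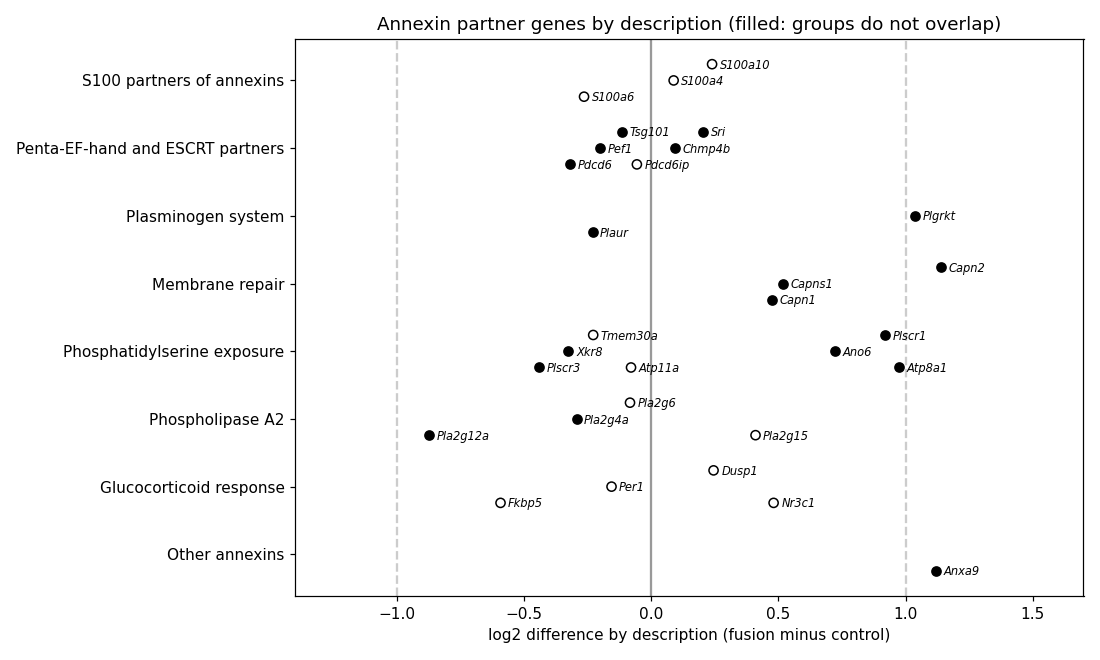
Log2 difference by description, fusion minus control (x axis), of each tested partner gene, by list (y axis); filled points are genes whose description groups do not overlap and dashed lines mark 2-fold. Plgrkt, Capn2 and Anxa9 lie beyond 2-fold, at 1.04, 1.14 and 1.12.

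Measures of RNA quality differed between single libraries. The difference between 3′ and 5′ control probe sets was 0.63 to 0.70 for actin in the 4 libraries, and for the transferrin receptor it was 1.31 in fusion replicate 1 against 3.87 to 4.53 in the others. The 18S ribosomal RNA probe sets averaged 12.49 and 11.87 in the replicate 1 libraries and 10.60 and 11.04 in the replicate 2 libraries. These split the libraries by replicate number or set 1 library apart. The dap transcript, a labelling control added to the RNA, did split them by description. Its 3′ minus 5′ difference was 3.71 and 4.43 in the fusion-described libraries and 3.10 and 3.19 in the others at 1 pair of probe sets, and 3.80 and 4.11 against 3.07 and 3.14 at the other. The part of these measures in the annexin values was not tested.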

How the data were processed

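RNA was hybridised to mouse 3′ expression arrays after biotin labelling with a 3′ kit, per the labels' protocols. The deposited log2 values are the authors' GCRMA output (version 2.28.0, as the submitters' processing notes name it). That they are log2 was read from the values (2.23 to 16.3). No source used here gives filters or batch steps, and scanner files and scan dates were not used. The series text speaks of chromatin immunoprecipitation, and the titles of all 4 libraries carry the word ChIP. The protocols describe RNA, so the values were read as RNA levels.

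The 64 control probe sets entered no test, and of the others those with a mean of at least 4 over the libraries were tested. Names came from the platform annotation, which gave 34958 probe sets 1 symbol, 932 several and 9211 none. Tests were run in R 4.3.3 with limma 3.58.1 (lmFit, eBayes with trend, two-sided, Benjamini-Hochberg over all tested probe sets, threshold 0.05), 2 libraries per group and 2 residual degrees of freedom. The estimates were checked on simulated data with known changes and independent noise. That noise left out the spread between description groups, so the check does not show what the title test could find here. Precision is limited by the number of libraries, as arrays have no depth.

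The annexin genes, the partner and marker lists and the tests were chosen with earlier results of these data known. Every annexin probe set is described. Partner genes named are S100a10, S100a6 and S100a4, and from each other list up to 4 with the highest mean level; the other partner genes, the markers and the genes near the floor were named after their values were seen. The probe set with the highest mean stands for a gene. Alternatives were grouping by description, other filters, no trend, centred libraries, a replicate block, each library left out, and the mean over a gene's probe sets.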

Additional observations from a re-analysis of the deposited data

How the results depend on the processing

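By title, 0 probe sets passed without the filter, with a filter at 6, without the trend, with centred libraries, with the replicate number as a block (0) and with each library left out (0 to 0). Nothing in the labels ties same-numbered libraries together. Their deviations correlated at -0.20 by title and 0.59 by description over probe sets, and a crossed pairing as a block, chosen after seeing the data, also gave 0 calls. Grouping by description gave 2 calls over all probe sets. The count of annexin probe sets at least 2-fold apart by title, 0, became 2 by description and 0 to 1 with a library left out. By description the count of 2 became 1 with a filter at 6, which removes Anxa3, 3 with centred libraries, and 2 to 4 with a library left out, 4 without control replicate 2. For partner genes the title count of 0 became 2 by description and 1 without any one library, and the description count of 2 ran from 1 without control replicate 2 to 5 without fusion replicate 2. Leaving out a library leaves 1 library in a group, which is assumed to vary like the others.

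None of the annexin title differences passed under any alternative that gave a test, and 13 of 75 alternatives changed a sign. With a library left out, the title difference ran from -0.999 to 0.90 for Anxa1, -0.30 to 0.0729 for Anxa2, -3.24 to 2.36 for Anxa3, -0.53 to 0.71 for Anxa4, -0.68 to 0.0692 for Anxa5 and -0.36 to 0.38 for Anxa6. By description in place of title it was 5.17 for Anxa3 and -0.89 for Anxa4, and the mean over the probe sets of Anxa6 gave -0.0394. Of 68 description alternatives, 4 changed sign, all of genes that differed little, with a range of -0.31 to 0.0496 for Anxa2 and -0.0707 to 0.0548 for Anxa7 with a library left out, and 0.0018 for the mean over the Anxa7 probe sets. Anxa3 stayed between 4.73 and 5.61, Anxa1 between -1.60 and -0.91 and Anxa5 between -0.78 and -0.23 with a library left out. The mean over a gene's probe sets, which takes in those near the floor, moved Anxa1 from -1.25 to -0.63, under 2-fold, and Anxa6 from 0.45 to 0.14. The cause of these changes was not tested.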
